A study of Mus musculus with 18 samples.

Results

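A set of 9 ETS transcription factors known as targets or partners of FGF signalling were followed in mouse brown preadipocytes treated with FGF6, a secreted fibroblast growth factor. Its members are Etv1, Etv4, Etv5, Etv6, Ets1, Ets2, Elk1, Elk3, and Fli1. They were taken by name from a table of 48023 genes, with earlier results of these data known. Of the 9, 8 had enough counts to be tested. The cells are an immortalized line of murine brown preadipocytes, made with SV40 T antigen and cultured in high glucose DMEM with serum, and both treatment arms share this background. The line was exposed to vehicle (Veh) or FGF6, and RNA was taken at 4, 8, and 24 h, giving 6 groups of 3 libraries, 18 in all. The samples carry no information on whether the 3 libraries of a group came from separate cultures, so p-values measure the spread between these libraries, which may be technical.

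ETS factors share a DNA-binding domain that recognises a GGAA core. Receptor tyrosine kinases such as the FGF receptors act on them through the RAS, RAF, MEK, and ERK cascade, both by phosphorylating the proteins and by changing the transcription of their genes. Etv1, Etv4, and Etv5 form the PEA3 subfamily, whose transcripts are widely used as readouts of FGF signalling in embryonic tissues, and Capicua (Cic) is a repressor of these genes that ERK signalling relieves. Elk1 and Elk3 are ternary complex factors, which bind serum response factor (Srf) at immediate early genes. Etv6 is a repressor, Ets1 and Ets2 are activators phosphorylated by ERK, and Fli1 is best known in blood and endothelial cells.

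Library totals ranged from 24327816 to 33471980 counts, and all 18 libraries were used. The preadipocyte label was checked against 8 markers, of which 7 were tested and Dlk1 was at 0 in every library. Their summed level was 3930 to 5600 CPM (read counts scaled to a common library size) in the Veh libraries, 2750 to 3020 in the FGF6 libraries at 4 and 8 h, and 901 to 955 in those at 24 h. Col1a1, a fibrillar collagen, and Ly6a, a progenitor surface protein, fell by 0.90 and 0.50 on the log2 scale at 4 h (edgeR adjusted p = 5.32e-14 and 9.19e-05). Cd34, another progenitor surface protein on the list, went the other way later. At 8 h it measured 14.4 ± 0.685 CPM with FGF6 against 10.5 ± 1.20 with Veh (SD, n = 3). At 24 h it measured 43 ± 3.37 against 16.5 ± 0.916 (edgeR adjusted p = 0.000174 at 8 h and 9.69e-14 at 24 h). The other 6 tested markers were lower at 24 h, 5 of them at least 2-fold. Of all genes, 37.9% were lower then and 15.3% lower by at least 2-fold. The 5 markers of mature brown adipocytes summed to 63.9 to 174 CPM, mostly Fabp4. At 24 h the sum was 151 to 174 CPM with Veh and 63.9 to 70.4 with FGF6. Of the 4 tested, 3 were lower and 1 higher at 24 h, where 37.9% of all genes were lower and 35.9% higher. The higher marker was Ucp1, with 17 to 25 counts per FGF6 library at 24 h and 0 in every other library. Among 5 endothelial markers, the sum was 0.377 to 1.67 CPM with Veh and 1.96 to 5.65 CPM with FGF6. Cdh5, the cadherin of endothelial junctions, had 0 to 5 counts per library with Veh and 12 to 114 with FGF6, while Pecam1 and Tek did not exceed 9 counts in any library. The leukocyte list summed to 3.36 to 18.4 CPM. Ptprc and Adgre1 had 2 counts or fewer in every library, but Cd68 and Csf1r, on the same list, were expressed. Cd68 measured 16.5 ± 0.217 CPM with FGF6 and 11.1 ± 0.457 with Veh at 4 h, and 3.24 ± 0.353 and 5.83 ± 0.324 at 24 h (SD, n = 3). Csf1r measured 1.41 ± 0.335 CPM with FGF6 and 3.65 ± 0.499 with Veh at 4 h. These are bulk samples, in which fewer cells of a type and less RNA per cell cannot be told apart. The part of the marker changes in the results on ETS factors was not tested.

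Promoter sequences were read for the genes with an entry among RefSeq promoters on GRCm38.p6, each window holding 250 bases before and 50 bases after an annotated start. Of the 9 factors, 6 matched (Etv1, Etv5, Etv6, Ets2, Elk1, and Elk3), with 8 windows in all. On either strand, none of the 8 windows held the ETS core CCGGAAG (present in 8.86% of all 32851 windows), the Capicua octamers TGAATGAA or TGAATGGA (2.47%), the AP-1 element TGACTCA (5.2%), or a CArG box, the element of Srf (1.63%). That says only that these letters are not in these windows. No other octamers were searched. The second Etv5 window, at chr16:22438319-22438618 on the minus strand, contained the heptamer TGAATGG in 3 places. This heptamer shares its first 6 bases with TGAATGAA and all of its bases with the start of TGAATGGA. The heptamer occurred in 3.59% of windows, and 1 of 32851 windows, this one, held it at least 3 times. Its letters were chosen after the window had been read, so the count is a description and no test, and no binding was measured. The 3 stretches are shown because Etv5 is among the most strongly increased factors below, with the heptamer, or its reverse complement in the last, in capitals. All 3 lie within Etv5 and outside its annotated exons (GENCODE M21).
Etv5, 242 bases before the start, chr16:22438589-22438618: agttttcaTGAATGGgaaggctgggaattg
Etv5, 198 bases before the start, chr16:22438548-22438577: gtcttgttttgTGAATGGggccgggcgcga
Etv5, 130 bases before the start, chr16:22438480-22438509: ggctccatctcCCATTCAtaaaaccaggct

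The first question was whether FGF6 changed the transcript of each factor at each time. FGF6 raised 6 of the 8 tested factors at all 3 times: the PEA3 genes Etv4, Etv5, and Etv1, the ternary complex factor Elk3, and, by less than 2-fold, Ets1 and Etv6. Ets2 was lower at every time, and Elk1 was lower at 8 and 24 h. A gene was called at a Benjamini-Hochberg false discovery rate (FDR) under 0.05 in edgeR's quasi-likelihood test across 15071 genes. At 4 h, 6 factors were called higher and 1 lower, against a background of 28.6% of all genes higher and 34.2% lower. At 8 h the counts were 6 and 2, against 32.4% higher and 38.4% lower, and at 24 h again 6 and 2, against 35.9% and 37.9%. In every one of these calls the 3 FGF6 libraries did not overlap the 3 Veh libraries. The share of all called genes for which this holds was not counted, so the separation is only a description. With the added requirement of a 2-fold change, 4 factors were higher (Etv1, Etv4, Etv5, and Elk3) and 0 lower at each time. The background for that rule was 4.96% higher and 6.38% lower at 4 h, 7.39% and 10.9% at 8 h, and 7.44% and 15.3% at 24 h. The median log2 fold change of the 8 factors was 0.77, 0.77, and 0.79 at 4, 8, and 24 h, beside -0.05, -0.05, and -0.02 for all genes tested. Scaling by library size alone moved the genome-wide split at 4 h from 4308 higher and 5152 lower genes to 3242 and 6495, and left the factors at 6 higher and 1 lower. Elk3 lies at the 2-fold cut, with log2 values of 0.92 at 4 h and 0.98 at 8 h under that scaling and 0.96 at 4 h with upper-quartile factors, so that 3 factors were then past it. Etv1 at 4 h was likewise just under it (0.99) without Veh replicate 2.

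**Figure D1:**
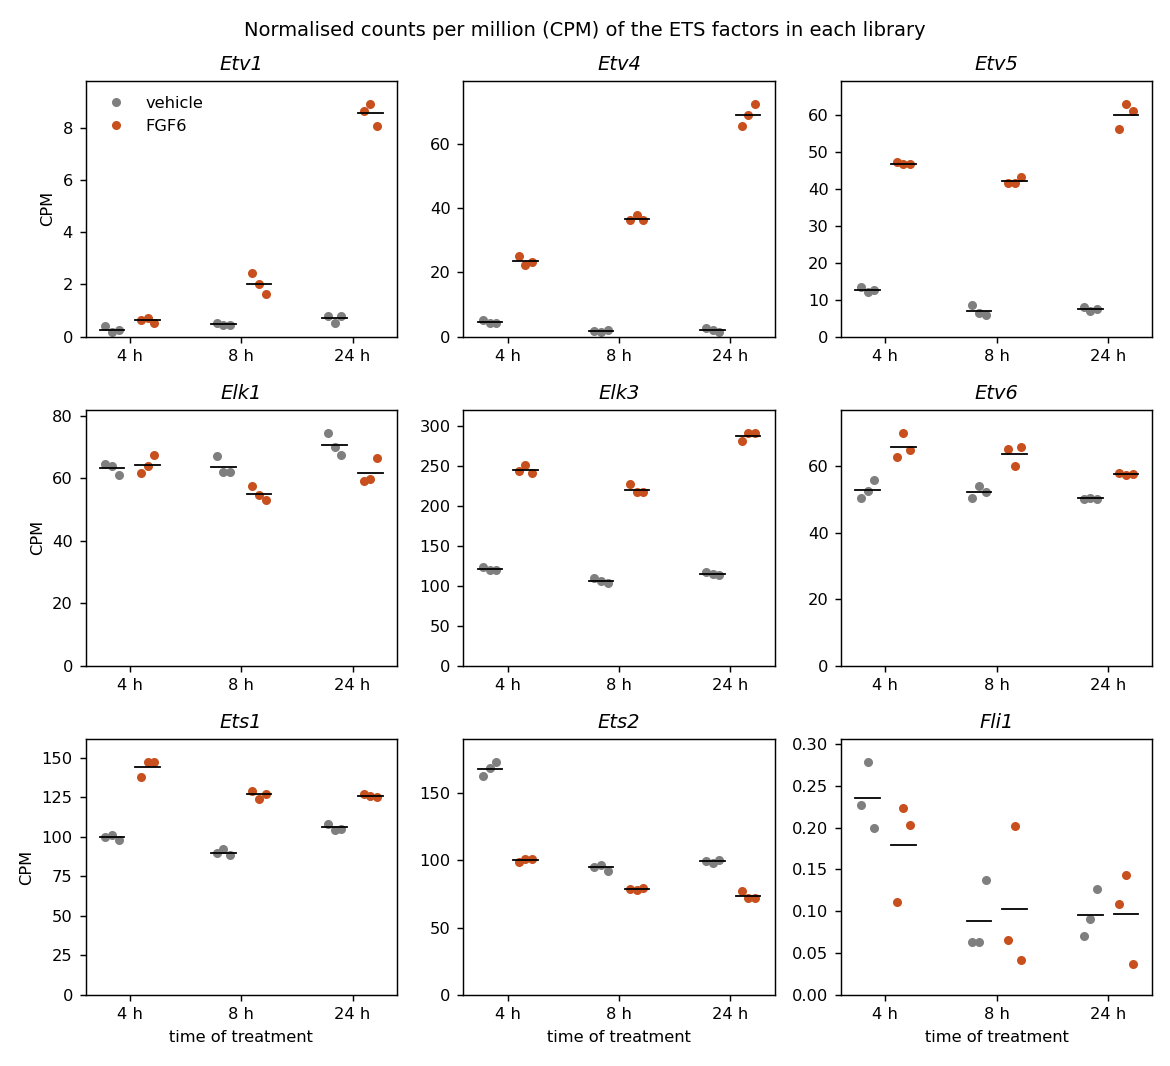
Each panel plots the level of 1 ETS factor in CPM (y axis, from 0) against time of treatment (x axis), with a point for each of the 18 libraries (grey, Veh; orange, FGF6) and a black bar at the mean of 3. Etv4 at 24 h reaches 65.4 to 72.3 CPM with FGF6 while its Veh libraries stay between 1.56 and 2.56, and Ets2 is the factor whose FGF6 points lie below the Veh points at all 3 times.

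Etv4 (ENSMUSG00000017724, chr11:101769742-101785371, minus strand, GRCm38) encodes the PEA3 protein that gives the subfamily its name. Its level at 4 h was 5.12, 4.36, and 4.27 CPM in the 3 Veh libraries and 25, 22.3, and 23.2 CPM in the 3 FGF6 libraries. At 8 h it was 1.70, 1.53, and 1.92 CPM with Veh against 36.2, 37.7, and 36.2 CPM with FGF6. At 24 h the Veh libraries held 2.56, 2.20, and 1.56 CPM and the FGF6 libraries 65.4, 68.9, and 72.3 CPM. The arms were far apart at every time, and the FGF6 level was higher at each later time than at the one before. The log2 fold change was 2.35 (SE 0.0866) at 4 h, 4.42 (SE 0.0989) at 8 h, and 5.01 (SE 0.0917) at 24 h, which are 5.11-fold, 21.4-fold, and 32.2-fold, with adjusted p of 9.01e-18, 1.95e-22, and 1.86e-24 in edgeR. Among all 15071 genes ordered from the most increased, Etv4 stood at rank 157 at 4 h, 49 at 8 h, and 59 at 24 h.

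Etv5 (ENSMUSG00000013089, chr16:22381309-22439719, minus strand), also called ERM, was the PEA3 gene with the highest level per exon length in Veh cells. Its 3 libraries at 4 h read 13.4, 12, and 12.5 CPM with Veh and 47.1, 46.6, and 46.6 CPM with FGF6. At 8 h the values were 8.65, 6.48, and 5.89 CPM against 41.6, 41.4, and 43.1 CPM. At 24 h they were 7.95, 6.91, and 7.36 CPM against 56.0, 62.8, and 60.9 CPM. All FGF6 libraries were above all Veh libraries, but the FGF6 level was slightly lower at 8 h than at 4 h, unlike that of Etv4. Etv5 was 3.70-fold, 5.98-fold, and 8.10-fold higher at 4, 8, and 24 h (log2 1.89, 2.58, and 3.02; SE 0.0741, 0.0818, and 0.0804; edgeR adjusted p = 3.24e-17, 2.27e-19, and 3.72e-21), with ranks of 262, 244, and 204.

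Etv1 (ENSMUSG00000004151, chr12:38779380-38870484, plus strand), the third PEA3 gene, was barely expressed in Veh cells. It had 6 to 12 counts per Veh library at 4 h, corresponding to 0.389, 0.185, and 0.234 CPM, and 13 to 22 counts per FGF6 library, or 0.629, 0.701, and 0.528 CPM. At 8 h the Veh libraries read 0.537, 0.445, and 0.445 CPM and the FGF6 libraries 2.44, 2.02, and 1.64 CPM. By 24 h the Veh libraries read 0.771, 0.513, and 0.799 CPM, and those with FGF6 8.64, 8.89, and 8.07 CPM, from 220 to 249 counts each. No library of one arm entered the range of the other at any time. The increase was 2.31-fold at 4 h (log2 1.21, SE 0.330, adjusted p = 0.00259), 4.28-fold at 8 h (log2 2.10, SE 0.235, adjusted p = 1.61e-08), and 12.5-fold at 24 h (log2 3.64, SE 0.192, adjusted p = 5.49e-15). The wide error at 4 h goes with its low counts, and leaving out 1 library at a time gave log2 values of 0.99 to 1.56 there. Its rank rose from 585 to 346 and then 142.

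Elk3 (ENSMUSG00000008398, chr10:93247414-93311135, minus strand), also called NET, represses Srf target genes until it is phosphorylated by ERK. In Veh cells it measured 123, 120, and 120 CPM at 4 h, 110, 106, and 103 CPM at 8 h, and 117, 115, and 113 CPM at 24 h. With FGF6 it measured 244, 251, and 241 CPM, then 227, 217, and 217 CPM, then 281, 291, and 291 CPM. At 4 h the Elk3 level with FGF6 was thus 2.02 times that with Veh. The Veh level was far above that of the PEA3 genes per exon length, and the libraries varied little for Elk3. The fold changes were 2.02, 2.07, and 2.51 (log2 1.02, 1.05, and 1.33; SE 0.0331, 0.0333, and 0.0334; edgeR adjusted p = 7.25e-19, 2.35e-19, and 1.12e-21). Elk3 shares 316 exonic bases with Cdk17 on the opposite strand, and the strand setting of the counting is not given in the sources used here, so reads in that stretch cannot be assigned with certainty.

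Ets2 (ENSMUSG00000022895, chr16:95702075-95721051, plus strand) moved the other way. Veh libraries held 163, 169, and 173 CPM at 4 h and FGF6 libraries 98.8, 101, and 101 CPM. At 8 h the levels were 95.5, 97.0, and 91.9 CPM with Veh and 79.1, 78.3, and 79.2 CPM with FGF6, and at 24 h 99.9, 98.5, and 100 CPM against 77.3, 71.8, and 71.9 CPM. The widest gap was at 4 h, when the Veh level itself was highest. Ets2 fell by 0.75, 0.27, and 0.43 on the log2 scale at 4, 8, and 24 h (SE 0.0328, 0.0339, and 0.0342; edgeR adjusted p = 3.29e-16, 1.4e-07, and 1.84e-11).

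Ets1 (ENSMUSG00000032035, chr9:32636221-32757820, plus strand), the relative of Ets2 with a closely similar ETS domain, rose where Ets2 fell. It ranged from 97.9 to 101 CPM with Veh and 138 to 147 CPM with FGF6 at 4 h, 88.2 to 92.2 and 124 to 129 CPM at 8 h, and 104 to 108 and 125 to 127 CPM at 24 h. Its log2 fold change was 0.53, 0.49, and 0.26 (SE 0.0319, 0.0322, and 0.0321; edgeR adjusted p = 1.84e-13, 5.74e-13, and 7.75e-08). Etv6 (ENSMUSG00000030199, chr6:134035700-134270158, plus strand), also called TEL, was 1.25-fold, 1.22-fold, and 1.15-fold higher (log2 0.32, 0.28, and 0.20; SE 0.0469, 0.0470, and 0.0477; edgeR adjusted p = 1.94e-06, 7.86e-06, and 0.000705). The Etv6 libraries spanned 50.2 to 55.8 CPM with Veh and 57.4 to 69.9 CPM with FGF6 over all times. Of its exons, 135 bases are shared with Gm17089 on the opposite strand.

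Elk1 (ENSMUSG00000009406, chrX:20933395-20950608, minus strand), the best known ternary complex factor, did not pass the test at 4 h: its libraries overlapped, at 61.2 to 64.7 CPM with Veh and 61.6 to 67.4 CPM with FGF6. Its log2 fold change there was 0.02 (95% interval -0.08 to 0.12, edgeR adjusted p = 0.74), and it turned to -0.08 with library sizes alone and -0.04 with upper-quartile factors. It fell by 0.21 at 8 h and by 0.19 at 24 h on the log2 scale (SE 0.0508 and 0.0504; edgeR adjusted p = 0.000783 and 0.00131), with no overlap between arms. The 24 h call was lost without FGF6 replicate 1 (-0.12, adjusted p = 0.0656) or without Veh replicate 1 (-0.11, adjusted p = 0.0695). Elk1 shares 76 exonic bases with Uxt on the same strand. Fli1 (ENSMUSG00000016087, chr9:32422204-32542861, minus strand) had 1 to 9 counts per library, or 0.0367 to 0.278 CPM, and was set aside by the filter on low counts. Without that filter its log2 fold change was -0.37, 0.27, and 0.03, with 95% intervals of -1.69 to 0.94, -1.37 to 1.92, and -1.64 to 1.70. A change of Fli1 within these intervals could not be detected at this depth. Rises as large as those of Etv4 at 8 and 24 h (log2 4.42 and 5.01) lie outside them.

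**Figure D2:**
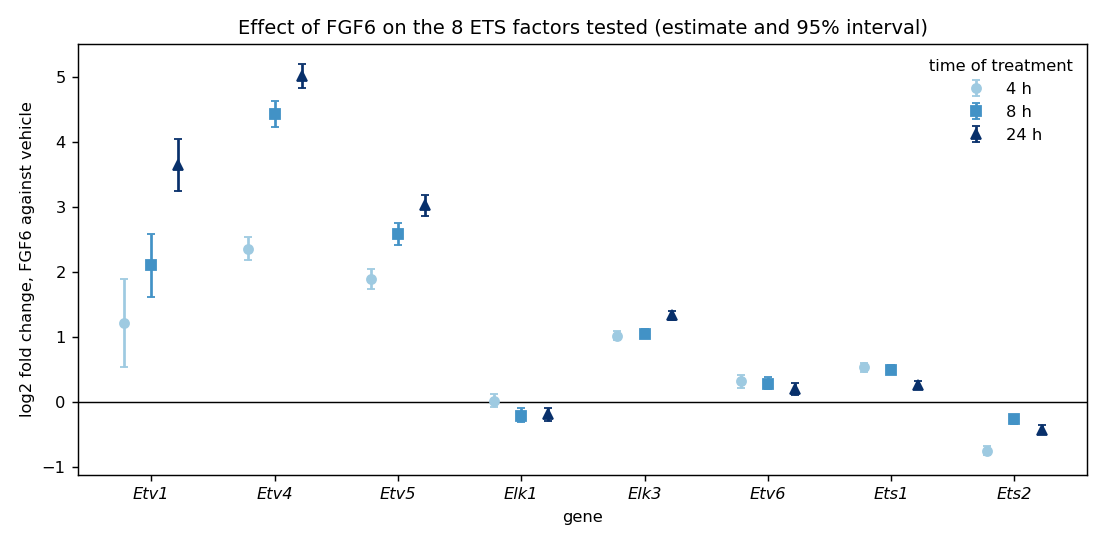
Log2 fold change of FGF6 against Veh (y axis) for each of the 8 tested factors (x axis), at 4 h (light circles), 8 h (blue squares), and 24 h (dark triangles), with bars for the 95% interval from edgeR. Etv1, Etv4, and Etv5 climb from 4 to 24 h, Elk3 stays between 1.02 and 1.33, and Ets2 lies below 0 at all 3 times.

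**Figure D3:**
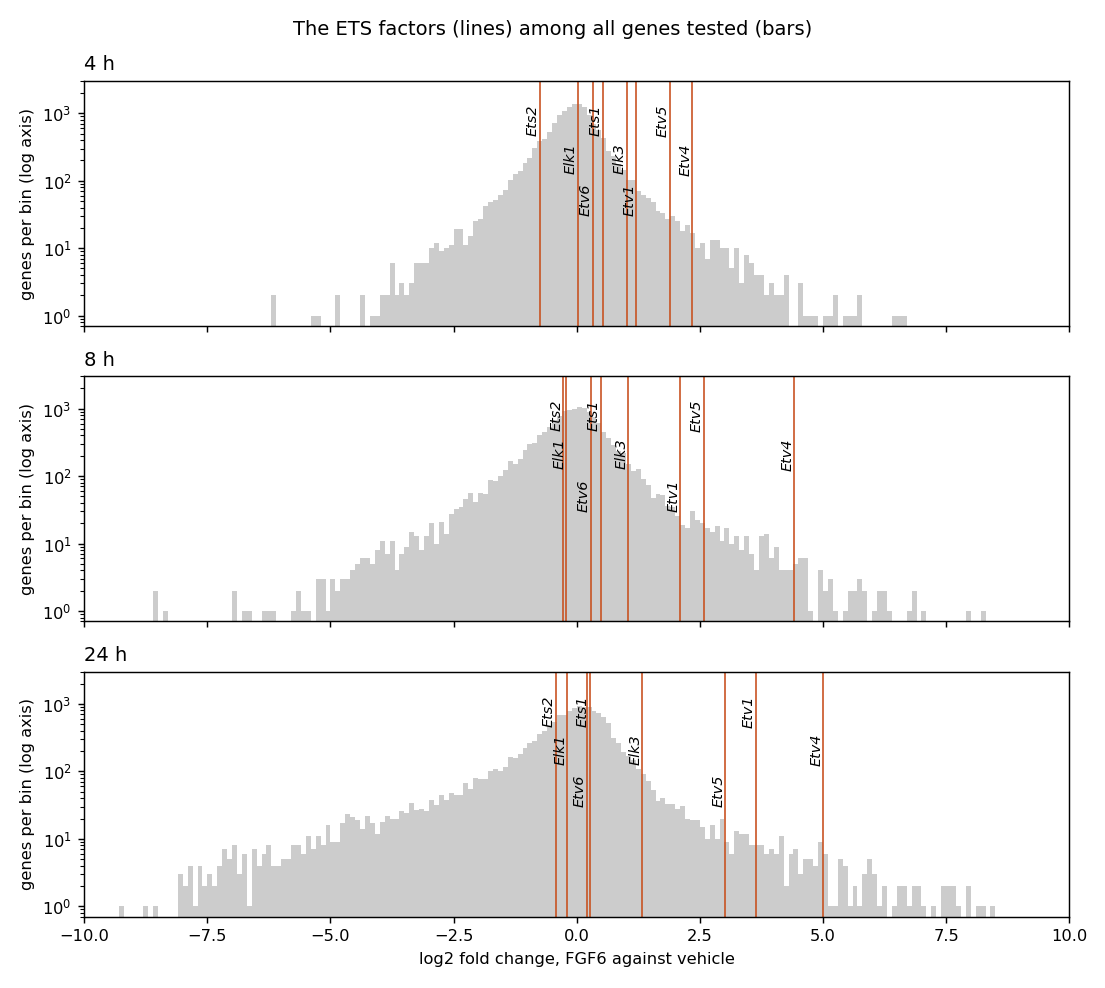
Grey bars count the 15071 genes tested by log2 fold change (x axis) in bins of 0.1, on a log y axis, at 4, 8, and 24 h from top to bottom, and orange lines mark the 8 factors. Etv4 moves out along the right tail from 2.35 to 5.01, while Elk1 stays between -0.21 and 0.02, and Ets1 moves inward from the upper shoulder, from 0.53 to 0.26.

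The second question was whether the effect of FGF6 itself changed with time, tested for each factor as a difference of fold changes. Between 8 and 4 h, 4 factors passed (background 30.6% of genes), followed by 6 between 24 and 8 h (45.1%), and 7 between 24 and 4 h (53.5%). Those backgrounds are high, and the counts of 4, 6, and 7 of 8 factors are to be read against them. For Etv4, the effect grew by 2.07 (log2, SE 0.151, edgeR adjusted p = 1.71e-10) from 4 to 8 h and by a further 0.59 (SE 0.176, adjusted p = 0.00802) from 8 to 24 h. The first step had a part in each arm: Etv4 in Veh cells dropped to 0.374 of its 4 h level, while in FGF6 cells it was 1.56 times that at 4 h (ratios of mean CPM). For Etv5, the effect grew by 0.69 (SE 0.114, edgeR adjusted p = 4.48e-05) and then 0.44 (SE 0.122, adjusted p = 0.00465). In its first step the FGF6 level was 0.900 of that at 4 h and the Veh level 0.555, so the larger fold change at 8 h came with lower levels in both arms. The second Etv5 step was lost without Veh 8 h replicate 1, which held the highest of the 3 Veh values at that time (0.26, adjusted p = 0.0541).

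Etv1 differed from both. Its effect grew by 1.54 (log2, SE 0.339, edgeR adjusted p = 0.000554) from 8 to 24 h, and its first step, 0.89, did not pass (95% interval 0.00 to 1.78, adjusted p = 0.127). In FGF6 cells the mean Etv1 level at 24 h was 13.8 times that at 4 h, against 2.93 times for Etv4 and 1.28 times for Etv5, ratios that were not tested. The Elk3 effect grew by 0.28 from 8 to 24 h (SE 0.0467, edgeR adjusted p = 2.60e-05), and its difference of 0.03 between 8 and 4 h did not pass (95% interval -0.06 to 0.13). The Ets1 effect shrank by 0.27 between 4 and 24 h (SE 0.0452, edgeR adjusted p = 1.45e-05). The decrease of Ets2 was weaker at 8 h than at 4 h by 0.48 (SE 0.0472, edgeR adjusted p = 2.46e-08), and stronger again by 0.17 at 24 h than at 8 h (SE 0.0482, adjusted p = 0.00604), the latter not called with library sizes alone (-0.11, adjusted p = 0.0567). Etv6 passed at none of the 3 steps, with differences of -0.03, -0.09, and -0.12 and 95% intervals of -0.17 to 0.10, -0.23 to 0.05, and -0.26 to 0.02. The Elk1 effect was 0.23 lower at 8 h than at 4 h (edgeR adjusted p = 0.0167), a call lost without FGF6 4 h replicate 3 (adjusted p = 0.0855), FGF6 8 h replicate 3 (0.0774), or Veh 8 h replicate 1 (0.0559), or with library sizes alone (0.0558). Its difference of -0.21 between 24 and 4 h (adjusted p = 0.0133) was lost without FGF6 24 h replicate 1 (adjusted p = 0.0753), FGF6 4 h replicate 3 (0.0758), or Veh 24 h replicate 1 (0.0770), or with library sizes alone (0.177).

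Levels also moved in Veh cells, which serve as the controls of each time. From 4 to 8 h, 5 of the 8 factors fell and 0 rose. Of the 15071 genes tested, 3277 were lower and 3198 higher (43.0% called in either direction). Etv4 fell by 1.42, Etv5 by 0.84, Ets2 by 0.83, Elk3 by 0.19, and Ets1 by 0.15 on the log2 scale (edgeR adjusted p = 5.27e-09, 5.56e-08, 6.15e-16, 6.19e-05, and 0.000525). The largest falls were thus in a pair of PEA3 genes and in Ets2, and the Veh libraries at 8 h did not overlap those at 4 h for any of the 5. How many of all called genes were separated in this way was not counted. From 8 to 24 h, 3 of 8 passed the test, all upward, where 3839 of 15071 genes were higher and 3575 lower (49.2% called in either direction). The 3 were Ets1, by 0.23, Elk1, by 0.15, and Elk3, by 0.11 (edgeR adjusted p = 1.91e-06, 0.0150, and 0.00945). Of these 3, only Ets1 kept its call under every alternative run. Elk1 and Elk3 both lost theirs without Veh 8 h replicate 3 (adjusted p = 0.0643 and 0.0687), with library sizes alone (0.257 and 0.481), and with upper-quartile factors (0.0605 and 0.0720). Elk1 also lost it without Veh 24 h replicate 1 (0.103) or Veh 8 h replicate 2 (0.0662), and Elk3 without the filter on low counts (0.131) or in fits limited to these time points (0.0557).

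To compare the factors with one another, CPM was divided by the exon length of each gene in kilobases. This length covers all annotated exons of a gene merged, such as 13296 bases for Etv1 and 3104 for Etv4. The transcript forms expressed here were not measured, so the places below and the family shares depend on that choice. In Veh cells the most abundant factors per kilobase were Ets2 and Elk3, at 29.1 ± 0.835 and 26.6 ± 0.431 (SD, n = 3) at 4 h, and Etv4 took the seventh place of 9 at every time, at 1.48 ± 0.151, 0.553 ± 0.0631, and 0.678 ± 0.164. With FGF6, Elk3 led at all 3 times, at 53.9 ± 1.19, 48.4 ± 1.30, and 63.3 ± 1.27 CPM per kilobase. Etv4 moved from the seventh place at 4 h (7.56 ± 0.439) to the fourth place at 8 h (11.8 ± 0.285) and the second at 24 h (22.2 ± 1.12). Etv5, at 14.6 ± 0.858 CPM per kilobase with FGF6 at 24 h, could not be told from Ets1 at 14.9 ± 0.142, whose libraries overlapped it. Etv1 remained in the eighth place there at 0.642 ± 0.0316, so its large fold change left it below the other PEA3 genes. In FGF6 cells at 4 h, Ets2 and Ets1 overlapped (17.3 ± 0.210 and 17 ± 0.567), as did Elk1, Etv5, and Etv6 in turn (12 ± 0.544, 11.4 ± 0.0693, and 11 ± 0.613).

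**Figure D4:**
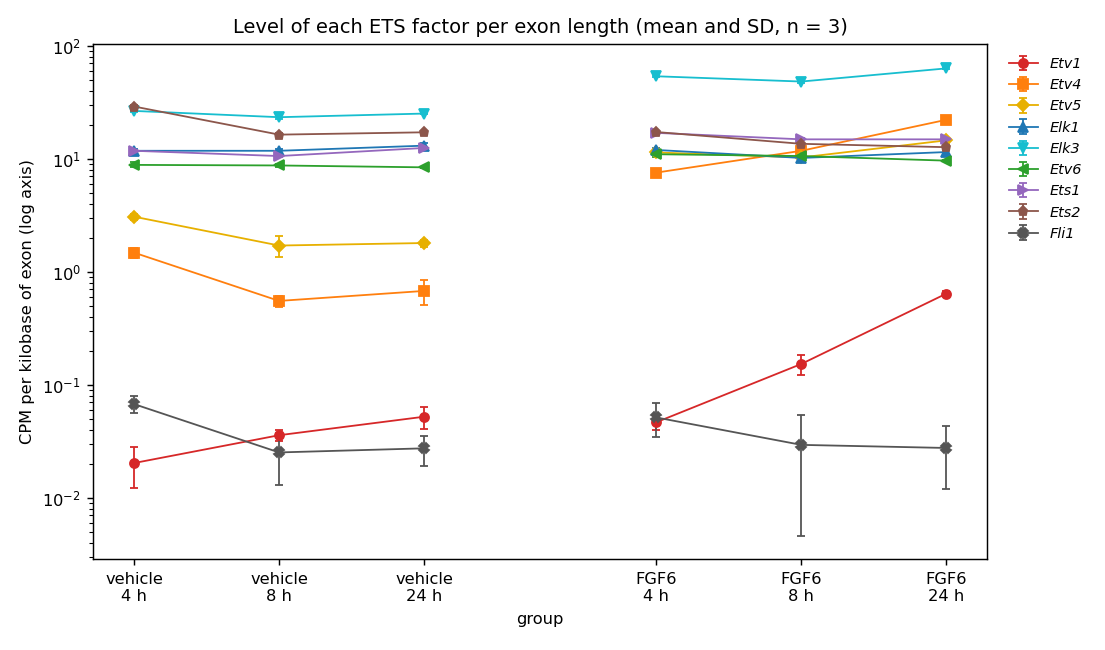
Level of each of the 9 factors in CPM per kilobase of exon (log y axis) in the 6 groups (x axis, Veh on the left and FGF6 on the right), with points for the mean and bars for the SD of 3 libraries. Etv4 and Etv5 lie well below the Elk and Ets genes with Veh, and with FGF6 Etv4 is still below them at 4 h but above all of them except Elk3 at 24 h, and Fli1 stays under 0.1 throughout.

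The makeup of the ETS family was then compared between the arms. Over 26 ETS genes (the 9 and 17 relatives), Etv1, Etv4, and Etv5 together made up 2.62% ± 0.202 (SD, n = 3) of the summed CPM per kilobase with Veh and 8.56% ± 0.366 with FGF6 at 4 h. At 8 h their share was 1.53% ± 0.213 and 10.9% ± 0.255, and at 24 h 1.60% ± 0.139 and 15.7% ± 0.542. The share of the ternary complex factors Elk1, Elk3, and Elk4 went from 24.2% to 31.9% at 4 h and from 26.5% to 33.5% at 24 h. The share of Ets1 and Ets2 was 23.3% with Veh and 15.5% with FGF6 at 4 h, and 18.7% and 11.6% at 24 h, although Ets1 itself rose. Shares sum to a fixed total, so they show unequal change between members.

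Of the 17 other ETS genes, 8 were tested. At 4 h 4 of them were higher and 2 lower, and at 8 and 24 h 3 were higher and 4 lower, where 28.6% to 35.9% of all genes were higher and 34.2% to 38.4% lower. Erf, an ETS repressor that ERK exports from the nucleus, was 0.45, 0.64, and 0.50 higher on the log2 scale at 4, 8, and 24 h (edgeR adjusted p = 4.93e-10, 6.54e-13, and 5.11e-11). Elk4, the third ternary complex factor, was 0.36, 0.58, and 0.54 higher (edgeR adjusted p = 1.65e-06, 3.20e-10, and 1.64e-09). Elf1 fell by 0.41, 0.55, and 0.90 and Elf4 by 0.12, 0.26, and 0.44 (edgeR adjusted p at 24 h = 3.49e-11 and 8.98e-10). No gene of this list rose 2-fold at any time, in contrast to 4 of the 8 factors above.

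The upstream cascade was described with 26 genes from FGF receptors to ERK and RSK, of which 25 were tested. At 4 h 10 were higher and 10 lower, 9 and 9 at 8 h, and 14 and 10 at 24 h, with median log2 fold changes of -0.07, -0.01, and 0.26. Over all genes the shares higher and lower were 28.6% and 34.2% at 4 h, 32.4% and 38.4% at 8 h, and 35.9% and 37.9% at 24 h, and the same background applies to the lists that follow. Fgfr1, the receptor with the highest counts, rose by 0.75 at 4 h (edgeR adjusted p = 2.61e-15), from 401 ± 9.34 to 673 ± 17.9 CPM (SD, n = 3). Fgfr2 fell by 1.88 (adjusted p = 1.24e-17), from 43.1 ± 0.576 to 11.8 ± 0.896 CPM. Sos2, an exchange factor for RAS, rose by 0.41 and Gab1, a docking protein, fell by 0.99 (edgeR adjusted p = 1.03e-07 and 8.65e-15).

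Inhibitors that ERK signalling induces on itself, the Sprouty, Spred, and Dusp genes with Il17rd, were measured as the other classical transcriptional readout of the pathway. At each time 10 of the 13 were higher and 2 lower, 9 of them at least 2-fold higher, with medians of 1.91, 1.89, and 1.92, where 28.6% to 35.9% of all genes were higher and 4.96% to 7.44% at least 2-fold higher. Dusp4 and Dusp6, phosphatases of ERK, were 3.99 and 3.91 higher on the log2 scale at 4 h (edgeR adjusted p = 2.41e-24 and 9.76e-25). Dusp6 went from 30.8 ± 1.05 to 464 ± 16.1 CPM. Spry3 fell by 1.66 at 4 h and was 0.38 higher at 24 h, and Il17rd fell by 0.58 and 1.4 at these times (edgeR adjusted p = 5.69e-12, 0.00105, 3.39e-05, and 3.03e-11).

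A list of 14 repressors, ubiquitin ligase components, and partners of ETS factors had 4 higher and 4 lower at 4 h, 5 and 4 at 8 h, and 7 and 2 at 24 h, with 28.6% of all genes higher and 34.2% lower at 4 h, so its counts there were near the background. Trib2 and Trib1, pseudokinases that bring substrates to the ligase Cop1, were 2.09 and 1.06 higher on the log2 scale at 4 h (edgeR adjusted p = 1.83e-20 and 2.90e-16). Cop1 itself, a ligase for PEA3 proteins, differed by -0.01, 0.01, and 0.09 and did not pass at any time (edgeR adjusted p = 0.858, 0.930, and 0.225). Cic was 0.19 higher at 4 and 8 h and 0.15 lower at 24 h (edgeR adjusted p = 0.000428, 0.000380, and 0.00282). Atxn1, a partner of Capicua in repression, fell by 0.16, 1.15, and 1.32 (edgeR adjusted p = 0.00869, 3.19e-16, and 2.63e-17), from 44.8 ± 0.719 to 18 ± 0.786 CPM at 24 h. Srf, the partner of the Elk proteins, fell by 0.29 at 4 h and was 0.32 higher at 24 h (edgeR adjusted p = 0.000221 and 7.48e-05).

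Immediate early genes controlled by Srf and Elk factors rose together: 6 of 7 at 4 h, 7 at 8 h, and 6 at 24 h, with none lower and medians of 2.26, 2.39, and 1.26, beside 28.6%, 32.4%, and 35.9% of all genes higher. Egr2 and Egr3, zinc finger factors, were 3.85 and 3.03 higher on the log2 scale at 4 h (edgeR adjusted p = 5.99e-24 and 1.43e-17). Egr2 was then 3.89 higher at 8 h and 0.99 at 24 h, whereas Egr3 stayed at 4.13 and 3.55. Fos was 0.56, 0.98, and 0.81 higher (edgeR adjusted p = 0.0358, 0.000315, and 0.00245), with overlap between the arms at 4 h.

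**Figure D5:**
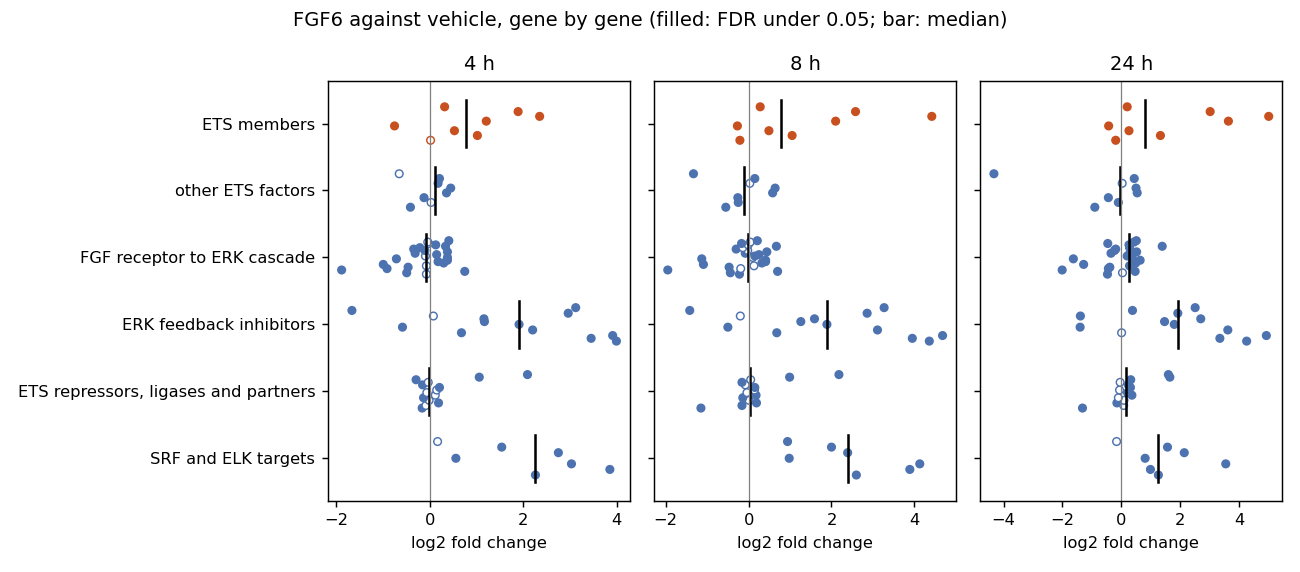
Each point is the log2 fold change of 1 gene (x axis, FGF6 against Veh) at 4, 8, and 24 h from left to right, by list (rows), filled where the edgeR FDR was under 0.05, with a black bar at the median of each list. The 8 ETS factors (orange) have medians of 0.77 to 0.79, between the feedback inhibitors (1.89 to 1.92) and the other ETS factors (-0.11 to 0.11).

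Genes with the pattern most like that of each factor were found by Pearson correlation of log2 CPM over the 18 libraries, among genes with a mean of at least 1 CPM. These correlations describe likeness across groups that share treatment and time and carry no p. For Etv4 the closest were Mmd (r = 0.993), Rcc2 (0.992), and Ran (0.992), for Etv5 St6gal1 (0.997), Plk3 (0.996), and Mfsd2a (0.994), and for Etv1 Dock8 (0.991), Rangap1 (0.987), and Wbp11 (0.987). Elk3 was most like Spred2 (0.996), a member of the feedback list above, followed by Rnf11 (0.996) and Ppp1r18 (0.996). For Ets1 they were Slc20a1 (0.990), Snx9 (0.984), and Trim16 (0.981), for Ets2 Jade1 (0.961), Nxn (0.955), and Pwwp2b (0.949), and for Etv6 Ccdc59 (0.960), Layn (0.958), and Abhd2 (0.958). Elk1 had the weakest, with Cry2 (0.876), Xpnpep1 (0.869), and Rsph9 (0.867). No gene was shared among the 8 sets of 3.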

How the data were processed

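RNA from 18 libraries of mouse brown preadipocytes (FGF6 or Veh at 4, 8, and 24 h, n = 3 per group) was analysed, with groups taken from the sample labels. The authors sequenced on an Illumina HiSeq instrument, aligned reads to GRCm38 with STAR, and counted them per GENCODE gene with Subread featureCounts. The deposited table holds raw counts, with no normalization. Versions, annotation release, strand setting, and handling of multi-mapping reads are not given in the sources used here.

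From these counts, edgeR 4.0.16 in R 4.3.3 (filterByExpr over the 6 groups, TMM factors, quasi-likelihood model over all 18 libraries, no covariates) tested 15071 genes, with Benjamini-Hochberg adjustment over all of them and an FDR threshold of 0.05. SE is that implied by the F statistic. CPM are counts over TMM-scaled totals of the genes kept. Positions, symbols, and exon lengths came from GENCODE M21, which held 98.5% of the gene identifiers, and promoters from RefSeq. Counting error only is covered by statements on low counts. Exact permutation of 3 libraries against 3 gives p = 0.1 at best, so it was not used. All 18 within-group pairs of libraries differed beyond sampling noise (smallest chi-square per degree of freedom 2.37).

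The members, lists, and tests were chosen with earlier results of these data known. The genes named are every member, the 3 genes most like each tested member, and from each other list the 2 largest increases and 2 largest decreases called at 4 h. Cic, Cop1, and Fos were added after the values were seen, as were the markers discussed by name. Alternatives were an FDR under 0.25, limma 3.58.1 with voom, DESeq2 1.42.0, upper-quartile factors, scaling by library size alone, a minimum of 10 counts in every library, tests with the low-count filter removed, fits limited to the time points compared, a block for the replicate number, and leaving out each library. On simulated counts for FGF6 against Veh at 4 h (14622 genes), edgeR recovered 79.8% of genes changed by 0.5 and 88.5% of those changed by 1 on the log2 scale, with 6 false calls. Only 99 and 96 genes were changed, up and down alike, and the same spread was set for every gene. In the data 9460 genes were called at 4 h, so these rates may not carry over.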

Additional observations from a re-analysis of the deposited data

Results flagged for a closer look

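For 7 of the 8 tested factors, the effect of FGF6 differed between time points in an interaction test of edgeR's model (FDR under 0.05), and 17 such differences were found among the 24 tested. They are given as log2 differences of the FGF6 effect. The Elk1 differences lost their call with library sizes alone (edgeR adjusted p = 0.0558 for 8 against 4 h and 0.177 for 24 against 4 h). They also lost it with certain single libraries left out. Between 24 and 8 h, that of Etv5 was lost without Veh 8 h replicate 1 (0.0541) and that of Ets2 with library sizes alone (0.0567).

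Between 8 and 4 h, the effect on Etv4 was larger by 2.07 (adjusted p = 1.71e-10), on Etv5 by 0.69 (4.48e-05), and on Ets2 higher by 0.48 (2.46e-08), which is a weaker decrease. On Elk1 it was -0.23 (0.0167). Between 24 and 8 h, the differences were 1.54 for Etv1 (0.000554), 0.59 for Etv4 (0.00802), 0.44 for Etv5 (0.00465), 0.28 for Elk3 (2.60e-05), -0.23 for Ets1 (0.000142), and -0.17 for Ets2 (0.00604). Between 24 and 4 h, they were 2.43 for Etv1 (3.01e-05), 2.65 for Etv4 (5.58e-14), 1.13 for Etv5 (5.59e-09), 0.31 for Elk3 (3.88e-06), 0.31 for Ets2 (3.82e-06), -0.27 for Ets1 (1.45e-05), and -0.21 for Elk1 (0.0133). In the same tests 30.6%, 45.1%, and 53.5% of all genes passed.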

How the results depend on the processing

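Numbers of factors called higher or lower by FGF6 were within 1.5 times under every processing alternative run. Of 504 values for single factors, 482 kept their direction and their side of the threshold, 9 lost their call, 3 gained one, and 10 changed sign. Leaving out 1 library, the same held for 500 of 528, with 13 lost, 3 gained, and 12 changed in sign. All those that changed sign were small and did not pass the test. For Elk1 they were its FGF6 effect at 4 h with library sizes alone (-0.0806) or upper-quartile factors (-0.0361), its difference between 24 and 8 h with DESeq2 (-0.00444), no filter on low counts (-0.00264), or at least 10 counts in every library (-0.0178), and its Veh change from 4 to 8 h with DESeq2 (-0.00394). With library sizes alone, Etv6 changed sign between 8 and 4 h in the FGF6 effect (0.00348) and with Veh (0.00827), as did the Veh changes from 8 to 24 h of Etv5 (-0.00491) and Ets2 (-0.00802). With 1 library left out, the values ran from -0.0423 to 0.0527 for the Elk1 difference between 24 and 8 h, from -0.0309 to 0.0271 for its Veh change from 4 to 8 h, and from -0.00301 to 0.075 for its effect at 4 h. They ran from -0.0739 to 0.0306 for the Etv6 difference between 8 and 4 h, from -0.0502 to 0.0231 for its Veh change from 4 to 8 h, and from -0.0354 to 0.253 for the Veh change of Etv5 from 8 to 24 h. The number of factors changed in Veh from 8 to 24 h, 3, was 6 at an FDR under 0.25, 1 with upper-quartile factors, and 1 to 4 with a library left out, and the number lower at 24 h, 2, was 1 to 2 with a library left out. The first comes from the looser threshold, and the cause of the others was not tested. At least 10 counts in every library removed Etv1, which had as few as 6. Library sizes alone moved the median of all genes at 4 h from -0.05 to -0.15 and the share of calls that were higher from 45.5% to 33.3%.

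The replicate numbers did not pair the libraries. Over 9 same-numbered pairs of a Veh and an FGF6 library at the same time, deviations from the group means correlated at -0.0275 to 0.0486. Of the 9 Veh libraries, 4 correlated best with the FGF6 library of their own number. With the replicate number as a block, 9465, 10686, and 11116 genes were called at 4, 8, and 24 h (9460, 10664, and 11115 without it), the factors counted higher or lower were 6 and 1, 6 and 2, and 6 and 2, and no call on a factor changed.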
